A study of Mus musculus with 4 samples.

Results

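The helix-loop-helix transcription factors described here are the proneural factors Neurog2 and Neurod1, the inhibitors Id1, Id2, Id3 and Id4, and the E proteins Tcf3, Tcf4 and Tcf12. They were chosen by gene name, and all 9 were found in the deposited table, each in 1 of its 18169 rows. RNA was sequenced from primary neural stem/progenitor cells (NSCs) of 4 newborn C57BL/6 mice, 2 wild-type (+/+) and 2 lacking the chromatin remodeler Chd5 (Chd5-/-). Each culture came from the periventricular region of 1 brain and was grown in proliferation medium with EGF and FGF2, and each genotype was represented by 2 animals. The growth protocol gives postnatal day 1 for the cultures, whereas the age entries of the samples give postnatal days 1 and 2 for +/+ and days 3 and 4 for Chd5-/-. By these entries age and genotype cannot be told apart.

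Proneural factors are basic helix-loop-helix proteins that drive progenitors toward neurons. They bind DNA at E-boxes, the motif CANNTG, as heterodimers with the broadly expressed E proteins. Id proteins have the helix-loop-helix but lack the basic region, so they pair with E proteins into dimers that cannot bind DNA, and in neural stem cells they are known as targets of BMP signalling that hold back neuronal differentiation. Neurog2 specifies glutamatergic neurons of the cortex, and Neurod1 acts in newly formed neurons. Tcf3 encodes E2A, Tcf4 encodes E2-2 and Tcf12 encodes HEB.

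In these cultures the E proteins and Id genes were expressed and both proneural factors were close to 0. For Id1 and Id2 each Chd5-/- sample was below each +/+ sample. Their log2 differences were -1.45 ± 0.29 and -1.52 ± 0.53 (SE, n = 2 per genotype). For Tcf3 both Chd5-/- samples were slightly above both +/+ samples, while Id3, Id4, Tcf4 and Tcf12 overlapped between genotypes. None of these differences passed an adjusted p-value of 0.05. Of all rows tested, 59.4% lacked overlap, 13.0% with Chd5-/- below and 46.3% with Chd5-/- above. The RNA of the 4 Id genes together, set against that of the 3 E proteins in the same sample, was lower in both Chd5-/- samples. Values are in TPM, a unit in which the reads of a transcript are divided by its length and by the total of the sample, so that levels can be compared between genes. The number of reads cannot be recovered from it, and the depth of each sample is therefore unknown.

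The start regions of Id2 and Id3 are shown because these related inhibitors differed in how they compared between genotypes and because E-boxes are the sites that the E proteins bind. The RefSeq windows of GRCm38.p6 run from 250 bases before to 50 bases after the start that RefSeq gives. For Id2 and Id3 this start lies inside the GENCODE gene positions printed further on, which begin at a more upstream transcript start. The Id2 window is chr12:25096043-25096342 on the minus strand and the Id3 window is chr4:136143572-136143871 on the plus strand. Capitals mark CANNTG and GGCGCC, a GC-rich motif of BMP-responsive regions.
Id2: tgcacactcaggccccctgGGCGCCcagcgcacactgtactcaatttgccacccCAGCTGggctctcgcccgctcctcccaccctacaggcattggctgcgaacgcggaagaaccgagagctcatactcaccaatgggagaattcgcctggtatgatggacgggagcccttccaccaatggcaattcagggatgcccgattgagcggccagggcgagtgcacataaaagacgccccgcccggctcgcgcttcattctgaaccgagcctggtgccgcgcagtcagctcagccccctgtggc
Id3: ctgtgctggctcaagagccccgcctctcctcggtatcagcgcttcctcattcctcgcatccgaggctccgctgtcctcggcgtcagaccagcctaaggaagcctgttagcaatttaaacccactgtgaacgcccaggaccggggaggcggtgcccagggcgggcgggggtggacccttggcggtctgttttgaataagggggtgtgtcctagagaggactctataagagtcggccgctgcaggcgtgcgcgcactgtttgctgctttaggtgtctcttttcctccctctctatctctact
The Id2 window held 1 E-box, CAGCTG, which began 196 bases before the start, and 1 GGCGCC, which began 231 bases before it. The Id3 window held neither motif. Windows were found for 7 of the 9 genes, namely all but Id1 and Tcf4, with 3 windows for Tcf12. Of these 9 windows, 6 held CANNTG, against 72.3% of all 32851 windows of this length. The form CAGCTG was in 2 of 9 against 16.3%, and GGCGCC in 2 of 9 against 11.9%. The other GGCGCC began 148 bases before the start of Id4, and the other CAGCTG was in a Tcf12 window. Both Id4 and Tcf12 overlapped between genotypes, unlike Id2. Both motifs read the same on the opposite strand, and the E-box CAGGTG, searched with its reverse CACCTG, was in 0 of 9 against 20.2%. A match describes the sequence and is not evidence of a bound site.

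Before the genotypes were compared, the samples were examined by the targeted gene and by cell type markers. Chd5 was at 0.39 and 0.37 TPM in +/+ and at 0.06 and 0.04 TPM in Chd5-/-, lower in both Chd5-/- samples but under 1 TPM throughout. The progenitor genes Fabp7 and Vim were at 1938.77 to 5891.59 and 1067.86 to 1502.02 TPM, whereas the 3 microglial markers listed summed to at most 0.75 TPM. Chd5-/- replicate 1 stood apart from the other samples. Its 7 astrocyte markers summed to 203.87 TPM, against 698.48 and 804.03 TPM in +/+ and 998.61 TPM in Chd5-/- replicate 2. The low sum came from the glutamate transporter Slc1a2 and the glycolytic enzyme Aldoc, which were at 70.45 and 22.56 TPM there, while Aqp4 and Aldh1l1 were lowest in +/+ replicate 1. Its 12 stem and progenitor markers summed to 3999.57 TPM, against 6991.97 to 9920.14 TPM elsewhere. Fabp7 and Slc1a3, at 1938.77 and 442.25 TPM there, made up most of the shortfall. Not all of these markers were low, since Nes and Prom1 were highest in Chd5-/- replicate 1, at 94.66 and 45.27 TPM. Its 9 mesenchymal and vascular markers summed to 19.1 TPM, against 1.1 to 1.83 TPM, through Acta2 and Col3a1. Chd5-/- replicate 2 was highest in Cnp, an enzyme of the oligodendrocyte lineage, at 296.34 TPM against 36.53 to 51.37 TPM in the other samples. Its 9 neuron markers summed to 804.38 TPM against 431.56 to 535.27 TPM, almost all of it Map2 at 784.89 TPM, while Gad1 was at 5.38 TPM there and at 4.34 to 57.17 TPM in the other samples. The 5 ependymal markers, among them Foxj1 and Dynlrb2, summed to 10.82 and 14.48 TPM in Chd5-/- and to 4.39 and 5.01 TPM in +/+. In bulk RNA, fewer cells of a type and less RNA per cell cannot be told apart, and the part of these marker shifts in the results below was not tested.

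Both proneural factors were near 0 in the NSCs. Neurog2 (chromosome 3 of GRCm38, 127633135 to 127635631, plus strand) was at 0.13 and 0.00 TPM in +/+ and at 0.10 and 0.91 TPM in Chd5-/-. Its highest value was in Chd5-/- replicate 2, and the other Chd5-/- sample lay between the +/+ samples. Neurod1 (chromosome 2, 79452521 to 79456751, minus strand) was at 0.61 and 0.27 TPM in +/+ and at 0.77 and 0.13 TPM in Chd5-/-, so that the Chd5-/- samples held both its highest and its lowest value. Neither reached the mean of 1 TPM required for the test. When every row above 0 was tested, their differences in log2(TPM + 1) were 0.45 ± 0.29 for Neurog2 (SE, adjusted p = 0.462, limma) and -0.016 ± 0.27 for Neurod1 (adjusted p = 0.975). An exon of Neurod1 overlaps one of Cerkl on the same strand, and Cerkl was at 0.00 to 0.16 TPM.

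**Figure D1:**
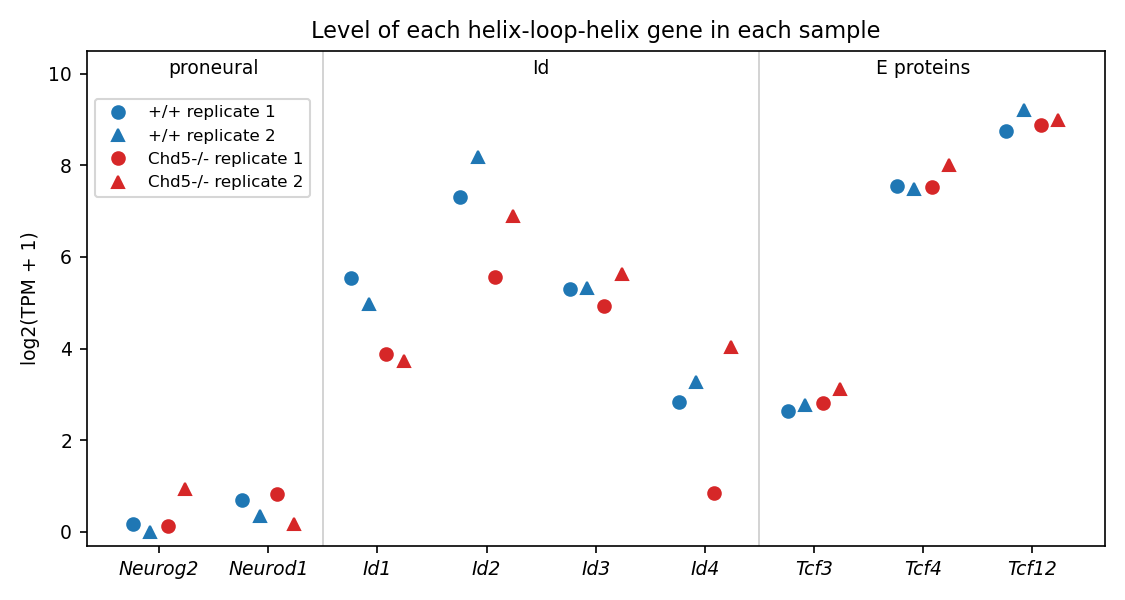
Level of each of the 9 genes as log2(TPM + 1) on the vertical axis, with 1 point per sample, blue for +/+ and red for Chd5-/-, circles for replicate 1 and triangles for replicate 2. Both red points lie below both blue points for Id1 and Id2 and slightly above them for Tcf3. The genotypes overlap for Id3, Tcf4 and Tcf12, and Id4 is lowest in Chd5-/- replicate 1 and highest in Chd5-/- replicate 2.

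The remaining 7 genes passed the filter on low values and were tested with limma on log2(TPM + 1), in a fit of all 12576 rows that averaged 1 TPM or more. With 2 samples against 2, an exact permutation test of a single gene cannot give a p-value below 0.333, so the tests rest on the spread that limma estimates over all rows. Of the 7 genes, 0 had an adjusted p-value under 0.05, as had 0.0557% of all rows. The unadjusted p-value was under 0.05 for 2 of them, Id1 and Id2, both lower in Chd5-/-. Of all rows 24.1% passed this threshold, 2.27% lower and 21.9% higher in Chd5-/-. With samples scaled by median of ratios these shares were 10.4% lower and 12% higher, and the 2 genes were still Id1 and Id2. The genotypes did not overlap for 3 of the 7 genes, with Id1 and Id2 below and Tcf3 above, against 59.4% of all rows, 13.0% of them below and 46.3% above. The median log2 difference was -0.041 over the 7 genes and 0.34 over all rows, or -0.41 and 0.0051 with samples scaled by median of ratios. The deposited values thus place most rows higher in Chd5-/-, and a difference near 0 lies below the median row. Over rows, the log2 difference rose with the GC content of the transcripts (Spearman rho 0.60).

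Id1 was the Id gene with the tightest values within each genotype relative to its difference. Id1 (chromosome 2, 152736251 to 152737410, plus strand) was at 45.84 and 30.35 TPM in +/+ and at 13.86 and 12.26 TPM in Chd5-/-. Both Chd5-/- samples were below both +/+ samples, and the mean in +/+ was 2.92 times that in Chd5-/-. The log2 difference was -1.45 ± 0.29 (SE), with a 95% confidence interval from -2.19 to -0.70, and did not pass after adjustment (limma, unadjusted p = 0.00385, adjusted p = 0.12). By unadjusted p-value it was 384th of the 12576 rows. The difference within a genotype was 0.58 between the +/+ samples and 0.16 between the Chd5-/- samples on the same scale. In place among all 18169 rows of a sample, Id1 was above 82.4% and 77.5% of the rows in +/+ and above 58.5% and 56.5% in Chd5-/-. Leaving out +/+ replicates 1 and 2 in turn gave Id1 log2 differences of -1.16 and -1.74. The same step for Chd5-/- replicates 1 and 2 gave -1.53 and -1.37. Each of these fits assumes the lone sample of 1 genotype to vary like the samples of the other. When the dependence on GC content and transcript length was taken out of each sample (trend removal), the log2 difference was -2.27 (unadjusted p = 0.000225, adjusted p = 0.247, limma). After trend removal 3 of the 7 genes, Id1, Id2 and Id3, had an unadjusted p-value under 0.05, all lower in Chd5-/-, against 11.2% of all rows in either direction.

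Id2 was the most abundant Id gene in all 4 samples. Id2 (chromosome 12, 25093799 to 25097140, minus strand) was at 158.58 and 290.20 TPM in +/+ and at 46.27 and 118.02 TPM in Chd5-/-. The groups did not overlap, but the samples of each genotype differed widely, with replicate 1 minus replicate 2 at -0.87 in +/+ and -1.33 in Chd5-/- on the log2 scale. The log2 difference between genotypes was -1.52 ± 0.53 (SE; 95% confidence interval -2.87 to -0.17; limma, unadjusted p = 0.0335, adjusted p = 0.177). It was -0.86 without Chd5-/- replicate 1, the sample low in Slc1a2, Aldoc and Fabp7, and -2.19 without Chd5-/- replicate 2. Without +/+ replicate 2 it was -1.09 with an unadjusted p-value of 0.175 (limma).

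Id3 did not follow Id1 and Id2 in the deposited values. Id3 (chromosome 4, 136143497 to 136145755, plus strand) was at 38.24 and 39.17 TPM in +/+ and at 29.57 and 48.27 TPM in Chd5-/-. The +/+ samples lay between the Chd5-/- samples, and the log2 difference was -0.033 ± 0.30 (SE; 95% confidence interval -0.80 to 0.73; limma, adjusted p = 0.957). Its value depended on the scaling. It was -0.40 when samples were scaled by median of ratios, -0.28 when they were quantile normalized and -0.89 after trend removal (unadjusted p = 0.0422, adjusted p = 0.436, limma). It was 0.31 without Chd5-/- replicate 1. The median transcript of Id3 has a GC content of 55.6%, and the 1261 rows within 1 percentage point of it had a median log2 difference of 0.82, so that Id3 was below rows of like composition. For Id1, at 55.0% GC, the corresponding median was 0.74 over 1311 rows. For Id2, at 45.1% GC, it was 0.0026 over 1219 rows.

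Id4 was the Id gene in which the Chd5-/- samples differed most from each other. Id4 (chromosome 13, 48261228 to 48266026, plus strand) was at 6.16 and 8.65 TPM in +/+ and at 0.80 and 15.36 TPM in Chd5-/-. Its lowest value was in Chd5-/- replicate 1 and its highest in Chd5-/- replicate 2, with both +/+ samples between them. The log2 difference was -0.62 ± 1.03 (SE; 95% confidence interval -3.24 to 2.00; limma, adjusted p = 0.735). Its direction turned without Chd5-/- replicate 1, to 0.98, whereas without Chd5-/- replicate 2 it was -2.21. Each of these fits has 1 Chd5-/- sample and so no measure of the spread within Chd5-/-. Exons of Id4 overlap those of the antisense gene A330033J07Rik, which was at 0.00 to 0.08 TPM. Of the 7 astrocyte markers 5 were lowest in Chd5-/- replicate 1, as Id4 was, among them Aldoc at 22.56 TPM against 215.89 to 320.88 TPM, and the other 2, Aqp4 and Aldh1l1, were lowest in +/+ replicate 1. The part of this shift in the Id4 values was not tested.

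The E proteins were spread over a wide range of levels and differed little between genotypes. Tcf12 (chromosome 9, 71842688 to 72111871, minus strand) was the highest of the 9 genes in every sample, at 428.54 and 593.60 TPM in +/+ and at 471.90 and 509.53 TPM in Chd5-/-. The Chd5-/- values lay between the +/+ values, and the log2 difference was -0.041 ± 0.26 (SE; 95% confidence interval -0.71 to 0.63; adjusted p = 0.939, limma). Tcf12 ranked between 159th and 278th of the 18169 rows in the 4 samples.

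Tcf4 (chromosome 18, 69343356 to 69689079, plus strand) was at 184.82 and 176.65 TPM in +/+ and at 182.61 and 255.82 TPM in Chd5-/-. Chd5-/- replicate 2 was the highest and the other 3 samples were alike. The log2 difference was 0.26 ± 0.25 (SE; 95% confidence interval -0.39 to 0.90; adjusted p = 0.560, limma) but it was -0.11 with samples scaled by median of ratios and -0.25 after trend removal.

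Tcf3 (chromosome 10, 80409514 to 80433647, minus strand) was at 5.20 and 5.85 TPM in +/+ and at 6.08 and 7.72 TPM in Chd5-/-. Both Chd5-/- samples were above both +/+ samples by a small margin. The log2 difference was 0.27 ± 0.29 (SE; 95% confidence interval -0.48 to 1.02; adjusted p = 0.596, limma), and it was negative when samples were scaled by median of ratios (-0.052) or quantile normalized (-0.37) and after trend removal (-0.57). Tcf3 has the highest GC content of the 7 genes, 61.5%, and the 229 rows within 1 percentage point of it had a median log2 difference of 1.05.

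The symbols Tcf3 and Tcf4 are also older names of the Wnt effectors Tcf7l1 and Tcf7l2, which are not helix-loop-helix proteins. These have rows of their own in the table, at 2.68 to 6.98 TPM for Tcf7l1 and at 18.93 to 31.49 TPM for Tcf7l2. Their relatives Tcf7 and Lef1 were at 1.09 to 13.10 and 0.00 to 1.04 TPM. Tcf4, at 176.65 TPM or more in each sample, was above all 4 of these genes, whereas the values of Tcf3 overlapped those of Tcf7l1 and Tcf7.

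**Figure D2:**
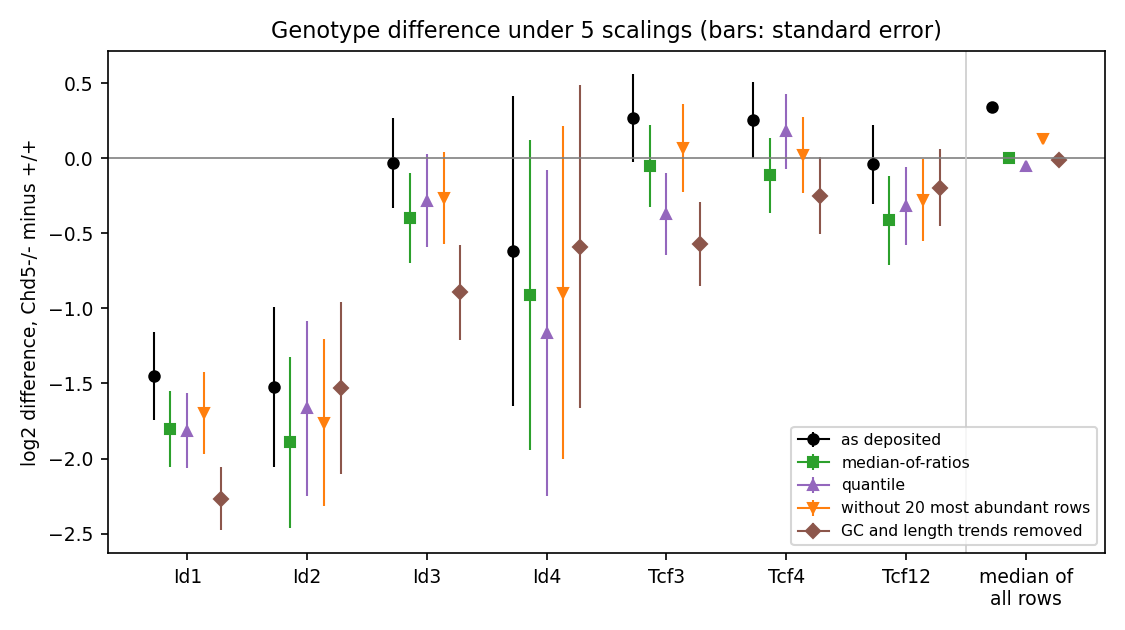
Log2 difference, Chd5-/- minus +/+, of the 7 genes tested under 5 scalings of the values, with bars of 1 standard error, and the median of all rows under the same scalings at the right. Id1 and Id2 lie below 0 under each scaling, whereas Tcf3 and Tcf4 lie on both sides of 0.

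In order of level, Tcf12 came first and Neurog2 and Neurod1 came last in every sample. Tcf4 and Id2 held the next places, with Tcf4 ahead of Id2 in 3 samples and Id2 ahead in +/+ replicate 2. Id1 and Id3 followed in +/+, at 38.1 ± 10.95 and 38.7 ± 0.658 TPM (SD, n = 2), a difference within the spread of Id1. In Chd5-/- they were at 13.1 ± 1.13 and 38.9 ± 13.2 TPM (SD, n = 2), with Id3 the higher in both samples. Id4 and Tcf3 exchanged places between samples. Among the 7 genes, the sample pattern of Tcf3 was most like that of Tcf4, with a root mean square difference of 0.098 in centred log2(TPM + 1) over the 4 samples. Id1 and Id2 were nearest to each other, at a larger distance of 0.74, while Id3 was nearest to Tcf4 at 0.17.

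Because E proteins are shared partners, the RNA of the Id genes was also set against that of the E proteins within each sample, a ratio that a common factor on all values of a sample leaves as it is. The 4 Id genes summed to 248.82 and 368.37 TPM in +/+ and to 90.50 and 193.91 TPM in Chd5-/-. The 3 E proteins summed to 618.56 and 776.10 TPM in +/+ and to 660.59 and 773.07 TPM in Chd5-/-. The Id to E-protein ratio was therefore 0.402 and 0.475 in +/+ and 0.137 and 0.251 in Chd5-/-. E-protein RNA exceeded Id RNA in all 4 samples, and the ratios of the genotypes did not overlap. The mean log2 ratio differed by -1.24, Chd5-/- minus +/+, and with 1 sample left out the difference was between -1.67 and -0.80. As a sum over chosen genes this ratio was given no test.

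The ratio rested largely on Id2. Without Id2 it was 0.146 and 0.101 in +/+ and 0.0670 and 0.0982 in Chd5-/-, with +/+ replicate 2 and Chd5-/- replicate 2 almost equal. With Id3 and Id4 alone it was 0.0718 and 0.0616 in +/+ and 0.0460 and 0.0823 in Chd5-/-, and the genotypes overlapped. Tcf12 supplied most of the E-protein RNA, from 65.9% to 76.5% of the sum, and Tcf3 at most 0.999%. Set against Tcf3 and Tcf4 only, the Id sum was 1.31 and 2.02 times as large in +/+ and 0.480 and 0.736 times in Chd5-/-. Id RNA was thus above that of these E proteins in +/+ and below it in Chd5-/-.

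**Figure D3:**
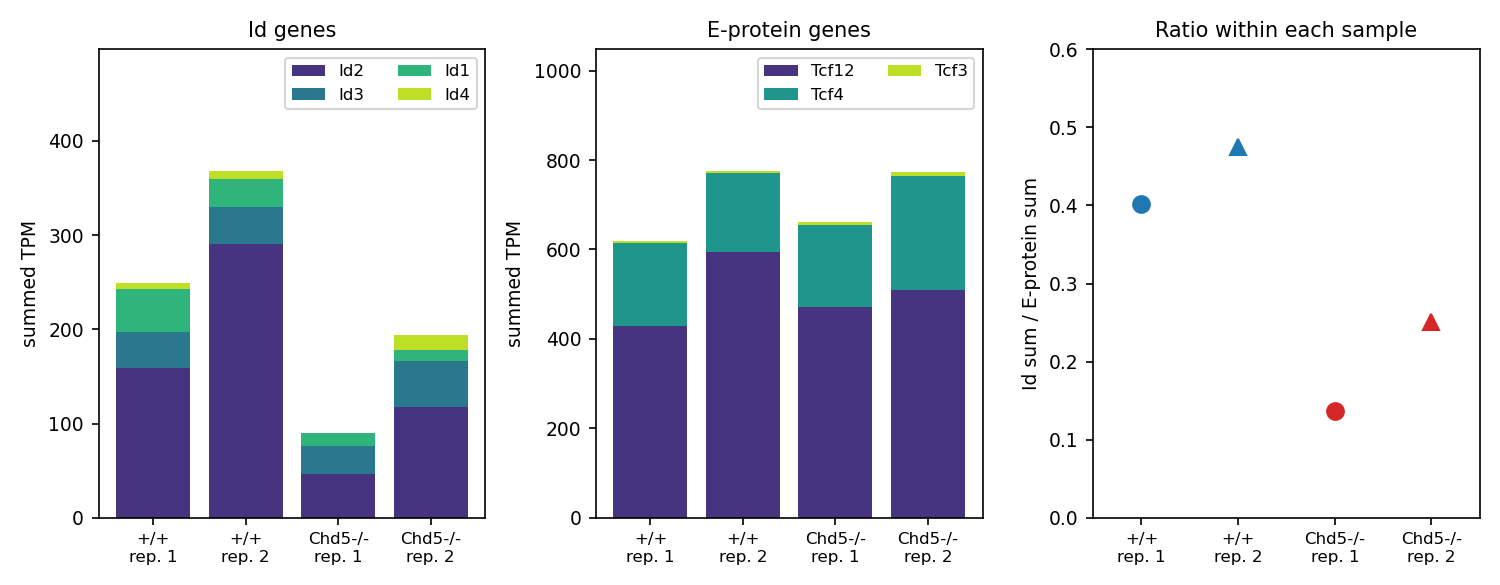
Summed TPM of the 4 Id genes (left) and of the 3 E-protein genes (middle), stacked by gene, and the ratio of the sums (right), for each of the 4 samples. The Id bars of Chd5-/- are shorter than those of +/+, the E-protein bars are alike, and the ratio is 0.402 and 0.475 in +/+ against 0.137 and 0.251 in Chd5-/-.

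The makeup of the Id RNA differed between samples as well. Id3 made up 15.4% and 10.6% of the Id sum in +/+ and 32.7% and 24.9% in Chd5-/-, with the genotypes apart. Id3 itself averaged 38.7 TPM in +/+ and 38.9 TPM in Chd5-/-, so its larger share restates the lower Id1 and Id2 values. Id2 made up 63.7% and 78.8% in +/+ and 51.1% and 60.9% in Chd5-/-, the largest share in each sample. The ratio of Id1 to Id3 was 1.2 and 0.775 in +/+ and 0.469 and 0.254 in Chd5-/-, which likewise restates the lower Id1 values. The ratio of Id1 to Id2, in contrast, was close to 0.29 in replicate 1 and close to 0.10 in replicate 2 of either genotype, at 0.289 and 0.105 in +/+ and 0.300 and 0.104 in Chd5-/-. The genotypes thus overlapped fully in this ratio while each of the genes was lower in Chd5-/-.

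The related gene lists were read against the same background. BMP signalling induces Id genes through Smad1, Smad5 and Smad9. Of 27 genes of this pathway 15 were tested, and 1 was higher and 0 were lower in Chd5-/- at an unadjusted p-value under 0.05, or 6.67% and 0% of them against 21.9% and 2.27% of all rows. The one was Smurf1, a ubiquitin ligase for Smads, which was at 8.65 and 6.57 TPM in +/+ and 14.24 and 13.08 TPM in Chd5-/- (log2 difference 0.78, adjusted p = 0.184, limma), and its difference was 0.16 after trend removal. The median log2 difference of the 15 genes was -0.046 against 0.34 for all rows. The receptor Bmpr1a, the most abundant of them, was at 201.35 and 184.03 TPM in +/+ and 149.29 and 141.02 TPM in Chd5-/-, without overlap (log2 difference -0.41, adjusted p = 0.296). Its difference was -0.78 with samples scaled by median of ratios and -0.47 after trend removal. The Smad corepressor Skil had a log2 difference of 0.34 (adjusted p = 0.467), and one of -0.0095 with samples scaled by median of ratios. After trend removal 0 genes of the pathway were higher and 2 were lower at the unadjusted threshold, against 5.14% and 6.06% of all rows. Other inhibitors in the list that are known Smad targets, Smad6, Smad7 and Bambi, had means under 1 TPM.

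Hes and Hey proteins are repressors of proneural genes, mostly downstream of Notch. Of 12 genes 7 were tested, and 1 passed an unadjusted p-value of 0.05, or 14.3% against 24.1% of all rows. It was Hes6, which unlike the others promotes neuronal differentiation. Hes6 was at 10.91 and 9.66 TPM in +/+ and at 24.28 and 27.52 TPM in Chd5-/- (log2 difference 1.25, adjusted p = 0.12, limma), and its difference was 0.28 after trend removal. Hes1, the classical Notch target, was at 46.10 and 39.20 TPM in +/+ and at 32.01 and 20.87 TPM in Chd5-/-, without overlap (log2 difference -0.70, adjusted p = 0.225), with a difference of -1.63 after trend removal. The gene counted thus depended on the scaling. After trend removal 0 genes of the list were higher and 1, Hes1, was lower at the unadjusted threshold, against 5.14% and 6.06% of all rows. With median of ratios Hes6 was counted as higher and Hes1 as lower. Bhlhe40, the most abundant of the list, had a log2 difference of 0.61 (adjusted p = 0.232), or 0.16 after trend removal. The median of the 7 genes was 0.47 as deposited and -0.14 after trend removal.

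Of 29 other class II and Olig factors 14 had a row and 4 were tested. Olig2, which specifies oligodendrocyte progenitors, was at 155.60 to 190.31 TPM (log2 difference 0.18, adjusted p = 0.627, limma), but -0.19 with samples scaled by median of ratios and -0.63 after trend removal. Olig1 was at 300.77 to 664.38 TPM (log2 difference 0.094, adjusted p = 0.907), and its difference was -0.28 and -0.77 under the same changes. Twist1, a mesenchymal factor that also pairs with E proteins, was at 0.26 and 0.00 TPM in +/+ and at 2.92 and 5.16 TPM in Chd5-/- (log2 difference 2.13, adjusted p = 0.12). Its low level in +/+ makes the log2 difference depend on the pseudocount, with 4.39 for a pseudocount of 0.1 and 0.81 for one of 5, and it was 1.18 after trend removal. It was the 1 gene of this list with an unadjusted p-value under 0.05, or 25.0% of the genes tested against 21.9% of all rows higher in Chd5-/-. The mesenchymal genes Col3a1 and Acta2 were highest in Chd5-/- replicate 1, at 7.41 and 9.55 TPM, against 0.00 to 0.04 and 0.00 to 0.30 TPM in the other samples, whereas Twist1 was highest in Chd5-/- replicate 2.

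**Figure D4:**
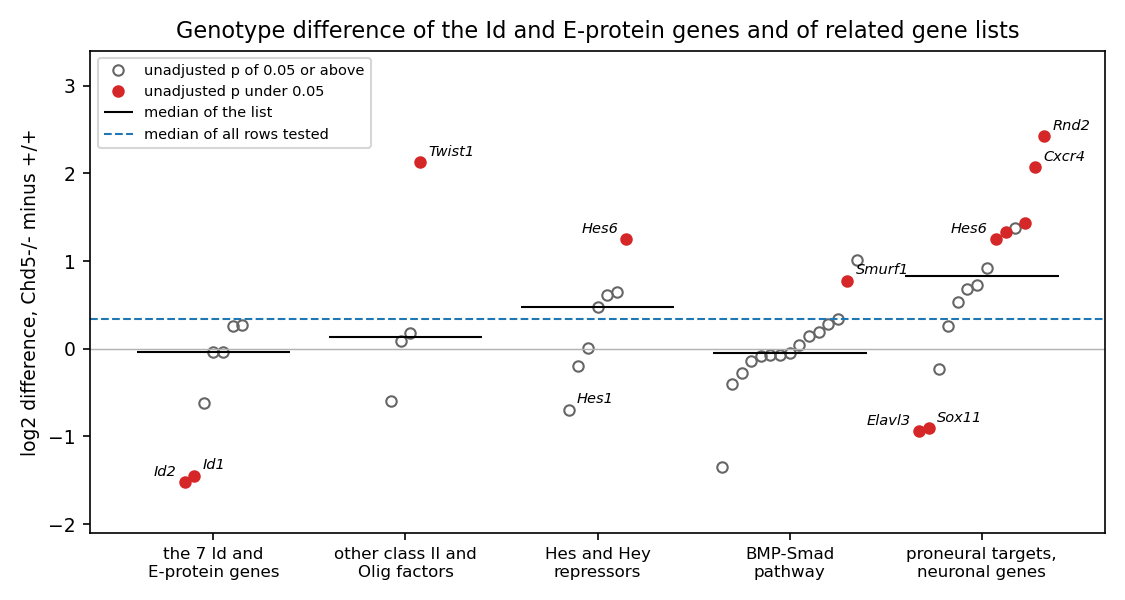
Log2 difference, Chd5-/- minus +/+, of each gene tested in the Id and E-protein set and in 4 related lists, in order of size within a list. Filled red points have an unadjusted p-value under 0.05, black lines are list medians, and the dashed line is the median of all rows, 0.34. The filled points below 0 are Id1, Id2, Elavl3 and Sox11.

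Genes that proneural factors are known to switch on, together with other genes of neuronal differentiation, were found on both sides. Of 25 genes 14 were tested, with 5 higher and 2 lower in Chd5-/- at an unadjusted p-value under 0.05 and 0 past the adjusted threshold (limma). These were 35.7% and 14.3% of the genes tested, against 21.9% and 2.27% of all rows. The median log2 difference of the 14 genes was 0.83 against 0.34 for all rows. After trend removal the medians were 0.16 and -0.013. The 5 higher ones were Cxcr4, a chemokine receptor of migrating neurons, Hes6, the growth arrest gene Gadd45g, the small GTPase Rnd2, a target of Neurog2, and the antiproliferative gene Btg2. Rnd2 and Btg2 were named because they were counted here, as were Elavl3 and Sox11. Cxcr4 was at 5.83 and 8.56 TPM in +/+ and at 38.83 and 28.02 TPM in Chd5-/-. Rnd2 was at 5.33 and 4.56 TPM in +/+ and at 17.53 and 53.85 TPM in Chd5-/-. The log2 differences were 2.07 for Cxcr4, 2.43 for Rnd2, 1.44 for Gadd45g and 1.33 for Btg2, with adjusted p-values from 0.12 to 0.129 (limma). The 2 lower genes were Elavl3, a neuronal RNA-binding protein, at -0.94 (adjusted p = 0.177), and the transcription factor Sox11, at -0.90 (adjusted p = 0.134). Sox4, the most abundant gene of the list, had a difference of 1.38 (adjusted p = 0.243).

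After trend removal 2 genes of this list were higher and 2 lower, or 14.3% each, against 5.14% and 6.06% of all rows. The log2 differences were then 1.80 for Cxcr4, 1.46 for Rnd2, 1.00 for Btg2 and 0.41 for Gadd45g, and -1.53 for Elavl3 and -1.04 for Sox11. Without Chd5-/- replicate 1, Sox4 was at 2.24, Rnd2 at 3.21 and Btg2 at 1.67. Without Chd5-/- replicate 2 they were at 0.53, 1.64 and 0.99. Cxcr4 was at 1.84 and 2.30 without Chd5-/- replicates 1 and 2, and at 1.83 and 2.32 without +/+ replicates 1 and 2. Twist1 was at 2.46 and 1.80, and at 2.30 and 1.96, in the same order. A fit with a lone Chd5-/- sample takes its spread from the +/+ samples. Over rows, the difference between replicates had an SD of 0.479 in +/+ and 0.884 in Chd5-/-. Other genes of the list were low, with Tubb3 at 0.29 to 2.77 TPM, Dcx at 0.28 to 2.37 TPM and Eomes at 0.00 to 0.03 TPM.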

How the data were processed

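RNA-seq of polyadenylated RNA from primary NSCs was analysed in 4 samples, 2 +/+ and 2 Chd5-/-. The authors deposited TPM values in 1 table with 2 decimals, whose columns sum to between 1000015 and 1000031. The submitters' processing notes name Bowtie2 2.2.3, RSEM 1.2.20 and mm10, and the annotation is not given in the sources used here. TPM adds to a fixed total, so abundant rows shift all others, and it keeps no depth.

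Rows averaging 1 TPM or more were tested as log2(TPM + 1) with limma 3.58.1 in R 4.3.3 (eBayes with trend, two-sided, Benjamini-Hochberg over all rows tested), without other terms. GC content and length (96.2% of rows) and positions came from GENCODE M21 of GRCm38. Trends were removed by loess (span 0.5) of each sample's difference from the row mean. Alternatives were quantile normalization, scaling by median of ratios, rescaling after leaving out the 20 highest rows, pseudocounts of 0.1 and 5, no minimum, a minimum of 10 TPM, gene names summed, replicate blocks, eBayes without trend or robust, and leaving out each sample. Named genes were the 9 factors, Chd5, from each list the 3 rows of smallest unadjusted p-value and the most abundant row, and the 2 most abundant markers of each cell type. Of the genes this rule selects, 2 are not reported here, and genes outside it were named with their values known. The genes and lists were chosen with earlier results of these data known. The script was tested on simulated data. Python 3.11.15, pandas 2.3.3 and matplotlib 3.10.9 made tables and figures.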

Additional observations from a re-analysis of the deposited data

How the results depend on the processing

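The fitted differences and counts were recomputed under 17 other settings and 1 more chosen after seeing the data. A minimum of 10 TPM dropped Id4, Tcf3, Twist1, Gadd45g and Elavl3, and the Id to E-protein ratio and the number of genes without overlap were recomputed only where the setting could change them. Id1 kept its direction in 18 of 18 (-2.27 to -1.16, adjusted p from 0.0474 to 0.759) and Id2 in 18 of 18 (-2.19 to -0.86, adjusted p from 0.0274 to 0.790), with an unadjusted p-value under 0.05 in 18 and 15 of them. The number of the 9 genes at an unadjusted p-value under 0.05 was 1 in place of 2 without a minimum, and from 1 to 3 with 1 sample left out. The number past the adjusted threshold was then 0 to 2, the number without overlap 4 to 6, and the rows past the adjusted threshold 0 to 1247 (804 to 4436 unadjusted). A lack of overlap is easier to reach with 1 sample left out, so the larger number of genes without overlap is not a stronger result. The share of all rows without overlap was 59.4% with all samples and is not given with 1 left out. Over all rows the adjusted count of 7 became 4 with a pseudocount of 0.1, 3 when quantile normalized and 2 after removal of the GC and length trends. It was 0 with no minimum (3473 unadjusted), 0 with the replicate block (2289 unadjusted) and 0 with the replicate block and trends removed (879 unadjusted). The unadjusted count of 3033 was 1758 with a minimum of 10 TPM and 1355 with the trends removed.

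Some directions turned. After median-of-ratios scaling Tcf3 was at -0.052, Tcf4 at -0.11, Olig1 at -0.28, Olig2 at -0.19 and Skil at -0.0095. After quantile normalization Tcf3 was at -0.37, Olig1 at -0.14 and Skil at -0.17, and after rescaling without the 20 most abundant rows Olig1 was at -0.14 and Olig2 at -0.059. With GC and length trends removed, with or without the replicate block, Tcf3 was at -0.57, Tcf4 at -0.25, Olig1 at -0.77 and Olig2 at -0.63. With 1 sample left out Id3 ranged from -0.38 to 0.31, Id4 from -2.21 to 0.98, Tcf12 from -0.28 to 0.19 and Olig1 from -0.48 to 0.66. The cause was not tested.

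The replicate numbers are not stated to pair the cultures, and the differences between replicates of the 2 genotypes had a correlation of -0.15 over rows. With a replicate block Id1 had an unadjusted p-value of 0.00572 and Id2 one of 0.00382 (adjusted p = 0.217 for both, limma), and 2 of the 7 genes passed the unadjusted threshold. With the crossed pairing 2 of the 7 genes and 3092 rows passed the unadjusted threshold, and 0 of the genes and 5 rows the adjusted one. With 2 samples per genotype and unknown depth, differences smaller than the intervals given could not be resolved.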
